A study of Mus musculus with 5 samples.

Results

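Coding exons that lie away from promoters were examined for CpG methylation (mC) on each parental allele of mouse embryonic fibroblasts. A CpG position was included where it lay on chromosomes 1 to 19, inside the coding part of an exon in the GENCODE M21 annotation of mm10, more than 2 kb from every annotated transcript start, with more than 20 methylation calls in each of the 5 libraries on the allele described. Genes whose symbols start with Zfp, Pcdha, Pcdhb, Pcdhg, Hox or Col were left out by the same rule. This gave 5337 positions in 1428 exons of 1252 genes on the castaneus allele, out of 132596 positions covered in this way on that allele. On the domesticus allele it gave 4817 positions in 1324 exons of 1160 genes, out of 127760. Of these, 2643 positions in 795 exons were used on both alleles. The rule used annotation and coverage and no methylation level.

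The cells were fibroblasts of E13.5 embryos from 129/C57 dams crossed to CAST sires, and every library carried the Xist-deltaA allele (genotype Xist-deltaA/+), which forces the paternal X to be the inactive one. The 3 Female control libraries were Setdb1+/+ with a Nonsilencing shRNA. The 2 Setdb1 depleted libraries were Setdb1+/gt, with 1 gene-trapped copy of this H3K9 methyltransferase, and carried shSetdb1, a hairpin against it, so genotype and hairpin changed together and cannot be told apart. All cells were transduced with retrovirus and selected with puromycin. The assay was eRRBS, an enhanced form of reduced representation bisulphite sequencing. It samples fragments that begin at CCGG sites, and a cytosine that still reads as C after bisulphite treatment was methylated. The libraries hold no RNA, so neither the level of Setdb1 nor the fibroblast identity of the cells was checked by expression here. The start regions of the fibroblast genes Pdgfra, Vim and Fn1 had a mean mC of at most 0.202% on either allele. Those of the epithelial genes Cdh1 and Epcam were low as well, at 1.07 to 2.47%. That of the muscle gene Myod1 had 1.53% on the castaneus and 11.2% on the domesticus allele.

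In mammalian cells most CpGs inside genes are methylated, whereas CpG islands, which are stretches with many CpGs, usually stay free of methylation even when they lie in an exon. DNA methyltransferases are drawn to gene bodies through the H3K36me3 mark left by transcription. Setdb1 places H3K9me3, a mark best known for silencing retroelements.

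Each library held 9440874 to 10558931 calls per allele, and the coding positions held 252810 to 301849 calls per library and allele. The median coverage of a coding position was 47 to 52 calls per library, at which a level carries a counting error of several percentage points. Any pair of libraries differed at the coding positions by 2.32 to 3.44 times the squared counting error, both within a group and between groups, so no library was a copy of another. Whether PCR duplicates were removed is not given in the sources used here, so reads need not be separate molecules.

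Stretches of the sense strand from exons that the results turn on are shown so that dense and sparse CpGs can be seen beside their mC levels. They are read from GRCm38 (mm10). The CpGs used on at least 1 allele are in capitals, and a CpG in lower case was not covered deeply enough.
Dact3, chr7:16885460-16885659, plus strand, last coding exon, lower mean mC after depletion: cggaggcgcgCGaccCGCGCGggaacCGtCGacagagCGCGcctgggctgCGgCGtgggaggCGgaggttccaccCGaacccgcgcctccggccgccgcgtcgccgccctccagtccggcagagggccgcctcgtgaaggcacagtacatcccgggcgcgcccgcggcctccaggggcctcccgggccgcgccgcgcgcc
Disp3, chr4:148271522-148271721, minus strand, first coding exon, lower mean mC after depletion: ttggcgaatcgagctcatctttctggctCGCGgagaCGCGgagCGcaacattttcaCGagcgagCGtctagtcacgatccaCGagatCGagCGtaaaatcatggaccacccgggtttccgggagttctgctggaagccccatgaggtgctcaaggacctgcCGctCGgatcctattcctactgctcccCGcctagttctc
Cacna1a, chr8:84559239-84559438, plus strand, dense and nearly free of mC: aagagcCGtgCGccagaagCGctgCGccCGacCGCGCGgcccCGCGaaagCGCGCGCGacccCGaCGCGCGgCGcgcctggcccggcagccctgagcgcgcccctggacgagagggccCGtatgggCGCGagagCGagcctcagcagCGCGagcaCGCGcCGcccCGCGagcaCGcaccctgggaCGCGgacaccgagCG
Setd7, chr3:51542634-51542833, minus strand, sparse and nearly fully methylated: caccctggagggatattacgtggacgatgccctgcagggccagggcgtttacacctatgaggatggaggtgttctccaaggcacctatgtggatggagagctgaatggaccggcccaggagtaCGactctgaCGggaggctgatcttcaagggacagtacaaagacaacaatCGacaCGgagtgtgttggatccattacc
Sytl1, chr4:133256865-133257031, minus strand, more mC on the domesticus allele: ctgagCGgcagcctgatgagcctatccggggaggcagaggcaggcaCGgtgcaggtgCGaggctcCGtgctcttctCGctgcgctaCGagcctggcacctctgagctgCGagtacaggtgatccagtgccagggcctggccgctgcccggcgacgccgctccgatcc

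The coding positions fell into a large methylated class and a smaller unmethylated class. In the 5 libraries 20.8 to 21.4% of castaneus positions had less than 20% mC and 53.9 to 56.5% had more than 80%. The same shares were 20.8 to 21.2% and 52.8 to 55.5% on the domesticus allele. Introns more than 2 kb from a start held fewer unmethylated positions, 11.4 to 12.2% on the castaneus allele, and more positions between 20 and 80%, 35.9 to 39.9% against 22.5 to 24.9% in coding exons. The plot of positions by class shows that the 5 libraries lie close together in every class.

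**Figure D1:**
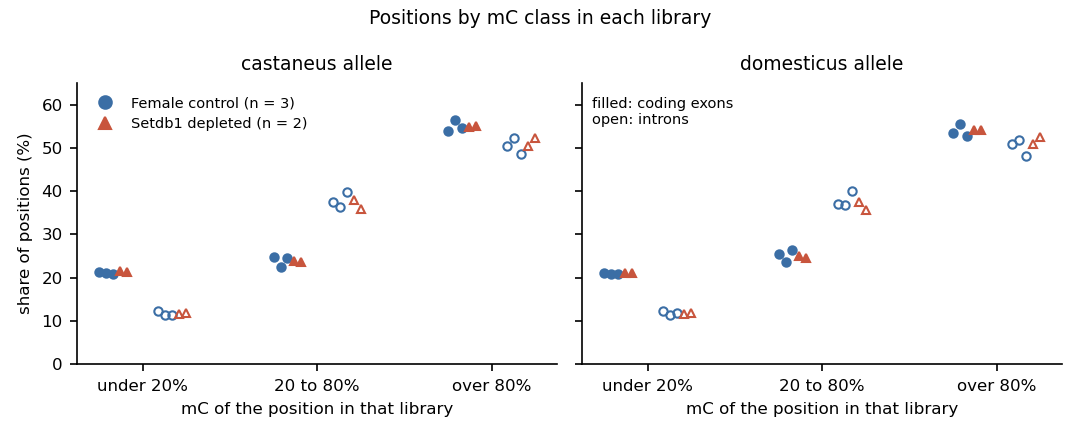
Share of positions (y axis, %) with mC under 20%, 20 to 80% or over 80% (x axis) in each library, for coding exons (filled) and introns (open) on each allele. Each point is 1 library, circles for Female control (n = 3) and triangles for Setdb1 depleted (n = 2). Coding exons held about 21.0% of positions in the lowest class, and introns about 11.7%.

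The local density of CpGs, counted within 50 bases on either side of a position and including it, ordered these levels. On the castaneus allele mean mC was 81.5% ± 0.40 (SD, n = 5 libraries) at 3 to 4 CpGs and 79.9% ± 0.38 at 5 to 6 CpGs. It was 70.01% ± 0.47 at 7 to 8 CpGs, 46.5% ± 0.31 at 9 to 10 and 28.0% ± 0.67 at 11 to 12. At 16 or more CpGs it was 5.73% ± 0.85 over 241 positions. The domesticus allele gave 80.6% ± 0.67 at 3 to 4 CpGs, 49.5% ± 0.60 at 9 to 10 and 10.6% ± 0.85 at 16 or more. The drop between neighbouring density bands above 6 CpGs was larger than the spread between libraries on both alleles. The sparsest band, with 1 to 2 CpGs, had 78.7 and 77.4%, somewhat under the band of 3 to 4.

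Exons of dense CpGs with almost no mC were found in genes of varied roles. The exons with at least 10 positions and the lowest means were those of Prr7, Ano8, Trim14, Sptbn4 and Tchh on the castaneus allele. In the exon of Prr7 the 24 castaneus positions had 0.192, 0.104 and 0.156% mC in the control libraries and 0.0582 and 0.0474% in the depleted libraries. In Sptbn4, which encodes a beta spectrin of axons, the 35 castaneus positions had 0.145, 0.446 and 0.478% in controls and 0.115 and 0.350% after depletion. Among domesticus exons, those of Trim14, Lor, Fbrsl1, Asb18 and Prr7 had means of 0.135 to 0.411%. Lor and Tchh encode loricrin and trichohyalin, structural proteins of skin and hair. All 5 libraries were under 1% in each of these exons on the allele named. Cacna1a, the pore subunit of a neuronal calcium channel, had the most positions of any exon, 59 on the domesticus allele, with 2.43, 2.58 and 1.85% in controls and 2.03 and 1.31% after depletion.

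Setd7, a histone lysine methyltransferase, stood at the other end. Its exon had 93.8, 93.9 and 94.5% mC in controls and 95.7 and 94.2% in depleted libraries over 8 domesticus positions. Eif2ak3, the PERK kinase of the unfolded protein response, had 95.3% as the mean of 5 libraries over 4 domesticus positions.

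At like CpG density coding exons had more mC than introns. Coding positions were higher than intron positions in 5 of 5 libraries in each of the 8 density bands on both alleles, by 2.04 to 21.8 points on the castaneus allele and 6.23 to 12.2 points on the domesticus allele. With a minimum of more than 10 or more than 40 calls, added after the data were seen, this held in 7 of 8 castaneus and 8 of 8 domesticus bands. Without matching, the order of the means was the other way. The mean over all coding positions was 66.1% ± 0.24 (SD, n = 3) in controls on the castaneus allele and that over intron positions was 69.3% ± 0.66. The medians over positions of the 5-library means were 84.9% in coding and 81.1% in intron positions. Coding exons hold more dense positions, and whether this sets the order of the means was not tested.

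**Figure D2:**
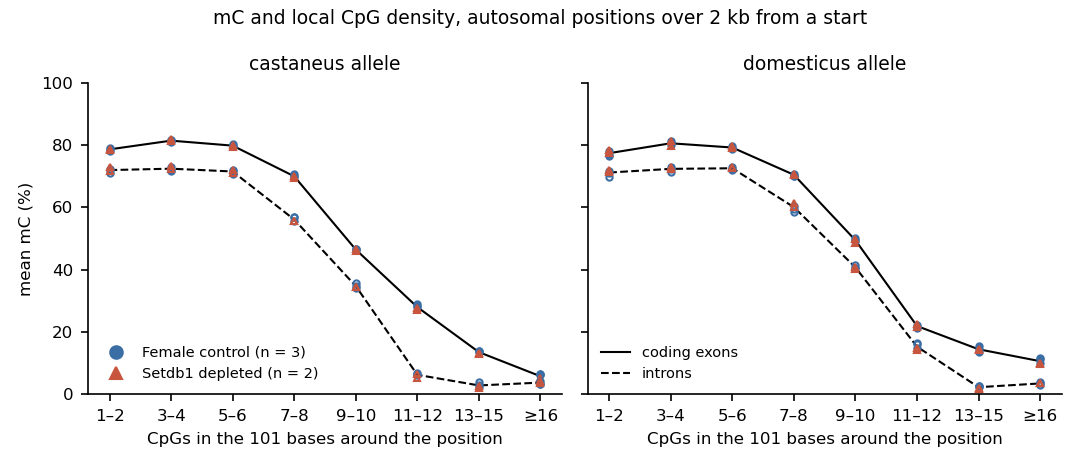
Mean mC (y axis, %) by the local number of CpGs (x axis) on each allele, for coding exons (solid line, filled points) and introns (dashed line, open points), all more than 2 kb from a start. Each point is 1 library and lines join the means of the 5 libraries. Coding exons, with Dact3 included, lie above introns in every band. They reach 5.73% on the castaneus and 10.6% on the domesticus allele in the densest band.

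Coding and intron positions were also compared within the same genes, using genes with at least 3 positions of each kind. On the castaneus allele 202 genes could be compared, and coding positions had 6.92 ± 0.41 points (SD, n = 5 libraries) more mC than introns, 73.8% against 66.9%. The control libraries gave 7.09, 7.36 and 6.92 points and the depleted libraries 6.998 and 6.25. The domesticus difference was 7.76 ± 0.50 points over 191 genes. Coding was higher in 5 of 5 libraries on both alleles (exact sign-flip permutation test over libraries, two-sided, p = 0.063, the smallest that 5 libraries allow). The libraries share these genes, so the SD and p describe spread between libraries and not between genes. The castaneus difference did not hold at the deepest positions. With more than 40 calls, 30 castaneus genes were left and the difference was 0.29 ± 0.74 points, higher in 3 of 5 libraries (exact sign-flip permutation p = 0.5), while 39 domesticus genes gave 7.24 ± 1.69 points. The median over genes was 6.01 points on the castaneus allele, where coding was lower in 68 of the 202 genes. The coding positions of these genes were denser in CpG, with a mean local count of 7.04 CpGs against 4.21 in the introns, although density goes with lower mC.

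Single genes departed far from this mean in both directions. Kcng2, a modulatory potassium channel subunit, had 2.47% over 14 coding positions and 65.997% over 4 intron positions on the castaneus allele. The domesticus allele showed the same order in Kcng2, with 3.08% over 26 coding positions and 72.1% over 5 intron positions. Kdm6b, an H3K27 demethylase, was the reverse on the domesticus allele, with 88.6% in coding positions and 0.507% in 3 intron positions. Unc5b, a netrin receptor, had 94.1% in coding and 2.78% in intron positions on the castaneus allele. These genes were chosen after their values were seen, among those with large differences.

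The place of an exon in its gene and its length went with mC. Internal coding exons had 75.6% ± 0.40 (SD, n = 3) in controls on the castaneus allele, exons with the first coding segment 61.1% ± 0.39, last exons 52.8% ± 0.085 and single coding exons 53.7% ± 0.29. The domesticus allele gave 74.6, 60.3, 53.5 and 48.5%. The internal exons were also sparser in CpG, with a mean local count of 5.84 CpGs against 8.26 in last exons on the castaneus allele. Within bands of density the gap between internal and last exons was narrower. The gaps from internal to first and single exons were narrower too, except on the castaneus allele at over 8 CpGs, where they widened. At 3 to 6 CpGs the castaneus allele had 81.9% in internal and 78.3% in last exons. At over 8 CpGs it had 41.1% against 25.4%, at mean local counts of 12.4 and 12.1, and the domesticus allele had 34.5% against 26.6%. At over 8 CpGs exons with the first coding segment and single coding exons were lower than last exons. They had 17.9 and 9.05% on the castaneus and 23.8 and 13.1% on the domesticus allele. The order of first above last exons was reversed on both alleles at over 8 CpGs. At 3 to 6 CpGs it was reversed on the castaneus allele, with first exons at 75.2%. Domesticus first and last exons were close there, with 77.02% ± 0.52 and 77.3% ± 0.35 (SD, n = 3) in controls. After depletion they had 77.7 and 77.01%, so their order differed between the groups. Exons of at most 150 bases had 79.1% ± 0.11 in castaneus controls and exons of over 500 and up to 1000 bases 49.9% ± 0.28. Longer exons were higher again, with 60.5% ± 0.58 at up to 2000 bases and 61.9% ± 0.61 above that. In these 4 bands domesticus controls had 79.96, 50.97, 61.3 and 58.5%. In castaneus controls positions 2 to 3 kb from a start had 56.6% and those 20 to 50 kb away 79.1%. Domesticus controls had 57.01 and 76.3%. At 3 to 5, 5 to 10 and 10 to 20 kb castaneus controls had 64.7, 64.96 and 67.9%. Domesticus controls had 67.7, 65.6 and 63.7% there, so their levels did not rise steadily with distance. Density, rank, length and distance were not separated from each other beyond the density band given.

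The position of the CpG within the codon gave a small difference. Positions where the C is codon base 1, all in arginine codons, were compared with those where it is codon base 2 (codons NCG) and codon base 3. Codon base 1 was higher than base 2 by 6.43 ± 0.32 points (SD, n = 5) on the castaneus allele and 5.50 ± 0.19 on the domesticus allele. Base 3 lay between, 3.79 and 2.73 points above base 2. All 6 comparisons had the same direction in 5 of 5 libraries (exact sign-flip permutation test, two-sided, adjusted p = 0.063 over the 6). These p-values too describe spread between libraries, which share the positions. Only part of the order held at low CpG density. At 3 to 6 CpGs base 1 stayed highest in castaneus controls, at 82.3% against 79.6% at base 2 and 79.8% at base 3. Domesticus controls had 80.2% at base 1, 80.4% at base 2 and 79.3% at base 3. Among positions at or under the median local CpG count the difference between base 1 and base 2 was -0.57 points on the domesticus allele, and base 3 was below base 2 by 0.33 points on the castaneus and 1.26 points on the domesticus allele, written as differences of -0.33 and -1.26. By codon, CGA had 74.4% and ACG 72.3% in castaneus controls, and GCG had 57.2% with 8.32 local CpGs on average against 5.23 at CGA.

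Reads that held at least 4 calls in 1 exon showed how mC was arranged on single fragments. In exons with a mean over 80%, 64.2 to 67.3% of such reads were fully methylated across libraries and alleles and 0.119 to 0.351% were unmethylated. In exons under 20%, 77.8 to 85.4% of reads were unmethylated. In exons of 20 to 80%, 66.2 to 73.5% of reads were mixed, 18.1 to 22.8% fully methylated and 8.02 to 11.8% unmethylated. Neighbouring calls on the same read agreed in 64.5 to 66.8% of pairs in these intermediate exons, where 57.0 to 59.4% would agree if the 2 calls of a pair were independent. Most reads of the intermediate exons thus carried both states.

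Top and bottom strands of the same CpG gave like levels. Both strands were covered at 909 CpGs on the castaneus and 747 on the domesticus allele, and the means of 5 libraries differed by a median of 2.84 and 2.83 points. Differences over 20 points were seen at 5 and 4 CpGs.

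The next comparison asked whether depletion of Setdb1 changed mC in coding exons. Mean mC on the castaneus allele was 66.01, 66.42 and 65.996% in the control libraries and 65.7 and 66.1% in the depleted libraries, which is -0.24 points. The groups overlapped (exact permutation of the library labels, two-sided, p = 0.6, where 3 against 2 libraries allow no p under 0.1). Domesticus means were 65.9, 66.4 and 65.6% in controls and 66.004 and 66.06% after depletion, so that the groups differed by 0.07 points (p = 0.7 by the same exact permutation). The castaneus change minus the domesticus change over the 2643 shared positions was -0.21 points (exact permutation p = 0.6). Within genes, the coding minus intron difference changed by -0.50 points on the castaneus allele (exact permutation p = 0.3) and by 0.30 points on the domesticus allele (exact permutation p = 0.7). With more than 40 calls the domesticus value was 2.25 points over 39 genes (exact permutation p = 0.1, the smallest possible), and with more than 10 calls it was -0.31. With more than 20 calls the libraries of the groups overlapped in each of these comparisons, and none of these tests could pass 0.05 in this design.

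The unmethylated class was read on 1 allele after being set on the other, so that the class did not use the values compared. Castaneus positions whose domesticus mean was under 20% had 5.56, 5.68 and 6.49% in controls and 5.27 and 4.71% after depletion, which is -0.92 points over 475 positions, and the libraries did not overlap (p = 0.1 by exact permutation, the smallest possible). With more than 40 calls it was -0.57 points and with more than 10 calls -0.79 (exact permutation p = 0.2 for both). Without the Disp3 positions it was -0.61 points over 465 positions (exact permutation p = 0.2), an alternative added after the data were seen. Dact3 had no position used on both alleles, so it was not part of this class. In its dense stretch the alleles were mostly read on opposite strands of the same CpGs. An example is the CpG at 394 bases into the exon on the castaneus and 395 on the domesticus allele. The domesticus positions under 20% on the castaneus allele differed by -0.08 points over 456 positions (exact permutation p = 0.3). With each library left out this ranged from -0.14 to -0.03 points. The classes of 20 to 80% and over 80% overlapped between groups on both alleles. At 16 or more CpGs castaneus positions had 6.56, 6.37 and 6.02% in controls and 4.58 and 5.10% after depletion, a difference of -1.48 points without overlap (exact permutation p = 0.1, the smallest possible). Without Dact3, an alternative added after the data were seen, it was -0.50 points, also without overlap (exact permutation p = 0.1). The domesticus difference was -1.05 points with Dact3 and -0.47 without it, and the groups overlapped in both (exact permutation p = 0.3 and 0.5).

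Each coding exon with at least 3 positions was tested with a quasi-binomial model whose dispersion was moderated by limma and fitted to all autosomal units of that allele. With Benjamini-Hochberg adjustment over all units, 0 of 714 castaneus exons passed 0.05, against 0.0457% of all 13125 units. For the domesticus allele 0 of 651 exons passed, against 0.0704% of 12782 units. At an unadjusted p under 0.05 there were 42 castaneus exons, 28 lower and 14 higher after depletion, or 5.88% against 4.27% of all units. The domesticus allele had 39 such exons, 23 lower and 16 higher, or 5.99% against 4.58% of all units. Control and depleted libraries had separate ranges in 161 castaneus exons, 76 lower and 85 higher, which is 22.5% against 17.2% of all units. The domesticus allele had 137 such exons, 70 lower and 67 higher, which is 21.0% against 17.1%. All units include those within 2 kb of a start, where the median position had 0% mC. The shares over all units are thus not matched to the exons in mC level. Over all tested exons 349 castaneus means were lower and 365 higher, and 316 domesticus means were lower and 334 higher. The limma test on log2 ratios also called 0 exons on either allele, and 0 of all units. The median change over exons was 0.11 points on both alleles and the median absolute change 2.18 and 2.20 points.

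**Figure D3:**
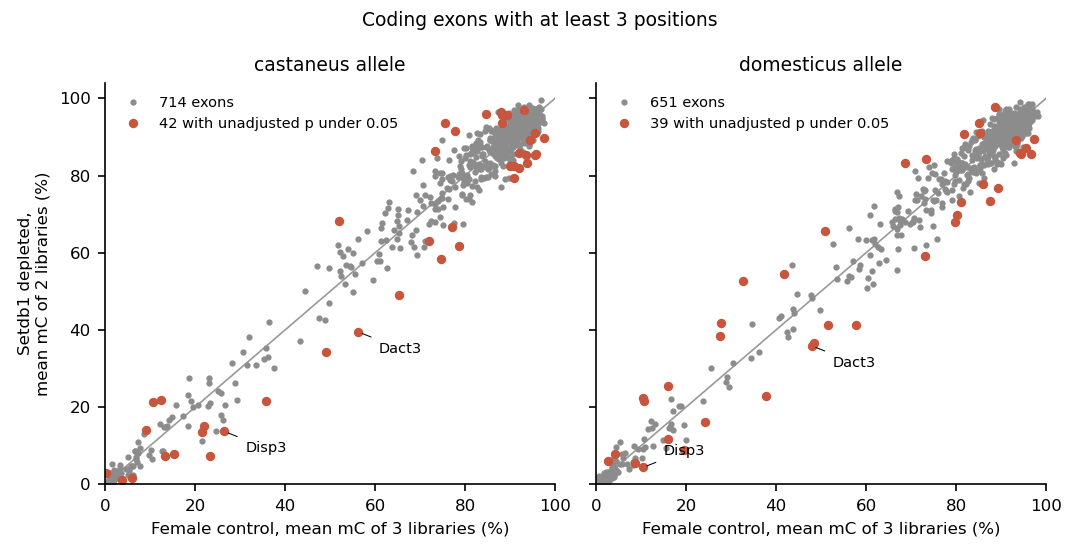
Mean mC of the 2 Setdb1 depleted libraries (y axis, %) against that of the 3 Female control libraries (x axis, %) for each coding exon with at least 3 positions on each allele. Grey points are all exons, red points those with an unadjusted p under 0.05, and the line marks equal levels. Most exons lie near the line, with Dact3 and Disp3 below it on both alleles.

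Dact3, a Dapper family protein that binds Dishevelled in Wnt signalling, had the most negative difference among the castaneus exons named. Its last coding exon lies at chr7:16885081-16886411. On the castaneus allele the exon had 59.4, 58.1 and 51.2% mC in controls and 35.9 and 43.0% after depletion, over 17 positions and 793 to 1176 calls per library. The domesticus allele had 51.4, 44.4 and 48.1% in controls and 37.3 and 34.3% after depletion, over 12 positions. The groups did not overlap on either allele. The differences were -16.8 points on the castaneus and -12.1 points on the domesticus allele, with an adjusted p of 0.0661 and 0.196 in the quasi-binomial model with moderation by limma, so neither passed 0.05. Without control replicate 3 the castaneus exon passed, with an adjusted p of 0.00859 by the same model. It was 0.133 and 0.126 without control replicates 1 and 2, 0.744 and 0.211 without depleted replicates 1 and 2, 0.115 with more than 40 calls and 0.928 by limma on log2 ratios. With a minimum of more than 10 calls the domesticus exon took in further positions and the difference was -5.21 points.

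The lower levels of Dact3 included the dense stretch printed above. From 390 to 455 bases into the exon all 12 domesticus positions had a lower mean after depletion, by 3.24 to 23.4 points (differences of -3.24 to -23.4), and 6 of them had groups that did not overlap. On the castaneus allele 14 of 17 positions were lower and 9 did not overlap. Neighbouring positions share reads, so these counts are not separate observations. The domesticus exon had 70 to 103 reads with at least 4 calls per library. The 3 castaneus positions with a higher mean after depletion were 163, 174 and 197 bases into the exon, outside the stretch. Positions at 161, 195 and 202 bases, also outside it, had lower means too, with differences of -13.7, -6.71 and -11.8 points, and only the one at 161 bases had groups that did not overlap among these 3. At 197 bases the libraries had 97.3, 83.8 and 41.3% in controls and 87.8 and 97.4% after depletion. The widest gap was at the castaneus position 441 bases into the exon, with 85.7, 82.7 and 81.9% in controls and 45.9 and 38.1% after depletion. The plot of mC along these exons shows the control libraries above the depleted ones over most of the stretch. Single reads of Dact3 were mostly mixed. Among castaneus reads with at least 4 calls, 94.6, 96.6 and 94.1% were mixed in controls and 84.3 and 82.5% after depletion, while unmethylated reads made up 0, 2.25 and 0.735% in controls and 11.8 and 11.7% after depletion. The domesticus allele had 0.971, 10.4 and 1.10% unmethylated reads in controls and 11.1 and 21.4% after depletion. No other Dact3 position was covered deeply enough to set beside the exon.

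**Figure D4:**
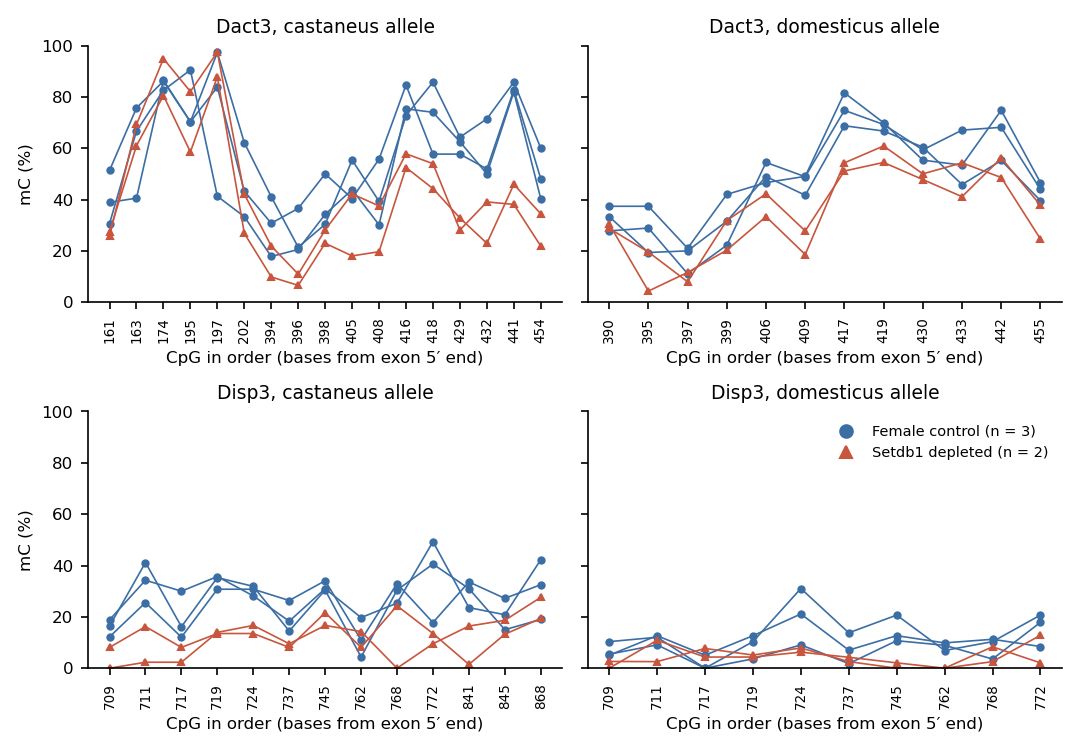
mC (y axis, %) at every CpG position used in the Dact3 and Disp3 exons on each allele, in order along the exon and evenly spaced (x axis, labelled by bases from the 5′ end of the coding exon). Each line is 1 library, blue circles for Female control (n = 3) and red triangles for Setdb1 depleted (n = 2). In Dact3 on the castaneus allele the widest gap is at 441 bases, the libraries cross at 163 to 202 bases, and in Disp3 the depleted libraries lie mostly under the controls.

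Disp3, a membrane protein of the Dispatched family, had lower mC in the coding exon at chr4:148271441-148272401. The castaneus allele had 25.6, 24.8 and 29.0% in controls and 12.7 and 14.6% after depletion over 13 positions, a difference of -12.8 points with an adjusted p of 0.0661 by the quasi-binomial model. It passed without control replicate 2 (adjusted p = 0.0472, same model) and with more than 10 calls as the minimum (adjusted p = 0.00588). It did not pass with more than 40 calls (adjusted p = 1 by the model), with exons of at least 6 positions (0.127) or by limma on log2 ratios (0.839). With each library left out in turn the castaneus difference ranged from -13.7 to -11.5 points. The domesticus allele had 10.5, 7.03 and 13.6% in controls and 4.38 and 4.26% after depletion over 10 positions, a difference of -6.07 points with an adjusted p of 0.816. All 13 castaneus positions and 9 of 10 domesticus positions had a lower mean after depletion. Neighbouring positions share reads here too, so they are not separate observations. The introns of Disp3 differed by -6.18 points over 3 castaneus positions and by -5.87 points over 4 domesticus positions, and its region within 2 kb of a start by 2.00 and 0.17 points. In its coding exon starting at 148241259, 2 of 4 domesticus positions were lower, with differences from -9.37 to 11.4 points. The coding exon starting at 148256788 had 1 position on each allele, with overlap. It differed by -8.53 points on the castaneus and -14.5 points on the domesticus allele. A copy of the exon at chr4:148271441-148272401 with 98.4% identity lies on an alternate locus sequence of a NOD strain in the reference, and none on the reference chromosomes.

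Of 443 exons tested on both alleles, 5 had an unadjusted p under 0.05 on both, and all 5 were lower after depletion on both, which is 1.13% against 0.588% of 7137 autosomal units tested on both alleles. These units too were not matched to the exons in mC level. Besides Dact3 and Disp3 the 5 exons were Lactbl1, Pomk and Pstpip2. Pomk, a kinase that acts on the glycan of dystroglycan, had 95.3, 94.9 and 96.7% in controls and 92.9 and 89.0% after depletion on the castaneus allele. Its domesticus allele had 78.0, 83.9 and 81.4% in controls and 73.8 and 72.3% after depletion. Lactbl1 had 45.1, 32.4 and 29.6% in controls and 18.4 and 24.8% after depletion on the castaneus allele, and differed by -4.16 points on the domesticus allele. Without control replicate 1 its castaneus difference was -9.35 points in place of -14.1. The 2 alleles come from the same 5 libraries, so they are not separate samples.

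The other exons with the lowest values relative to controls, among those with at least 5 positions, an unadjusted p under 0.05 and no overlap, were Ubap1l and Ttc39a on the castaneus allele, at -16.4 and -16.2 points. On the domesticus allele they were Cbfa2t3, a transcriptional corepressor, Kifc5b, a kinesin, Basp1 and Zbtb40, at -12.5, -10.9, -10.7 and -8.08 points. Cbfa2t3 had 90.9, 88.1 and 88.9% in controls and 70.6 and 83.0% after depletion, and its difference was -6.34 points without depleted replicate 1. Kifc5b had 94.6, 97.4 and 97.7% in controls and 90 and 81.4% after depletion, and its difference was -6.57 points without depleted replicate 2. Basp1 rested mostly on control replicate 1 and was at -5.47 points without it, with 29.8, 17.7 and 10.7% in controls and 9.92 and 7.59% after depletion. Kifc5b has 4 further copies on the chromosomes with up to 99.1% identity, so its level is uncertain. None of these had an adjusted p under 0.604 in the model.

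The exons with the highest values relative to controls under the same rule were smaller in change on the castaneus allele. Ebf3, a transcription factor of the EBF family, had 4.92, 12.6 and 14.4% in controls and 16.98 and 25.4% after depletion, a difference of 10.5 points, or 6.32 without depleted replicate 2 and 5.01 with more than 40 calls. A copy of its exon with 86.5% identity lies on the chromosomes. Tmem151b had 11.8, 9.92 and 15.6% in controls and 22.6 and 20.8% after depletion. Celsr1, a planar cell polarity cadherin, Pard6g, a polarity protein, and Cilp2 differed by 6.39, 5.56 and 5.06 points. Cilp2 differed by 2.21 points without depleted replicate 2, by 7.91 without depleted replicate 1 and by 0.92 with more than 10 calls. On the domesticus allele Ptprk, a receptor tyrosine phosphatase, had 54.8, 51.7 and 46.4% in controls and 62.0 and 69.2% after depletion. Hs3st3b1, a heparan sulphate sulphotransferase, had 62.7, 70.2 and 73.1% in controls and 84.8 and 81.5% after depletion. A copy of its exon with 98.9% identity lies elsewhere on the chromosomes, so its reads cannot be placed with certainty. Casz1, Plcd3 and Macrod1 differed by 10.9, 10.7 and 9.63 points. The exon of Casz1 has a copy of 99.2% identity on a reference sequence outside the chromosomes. No adjusted p in this group was under 0.534 in the model.

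Single positions were tested in the same way. None of the 5337 castaneus positions passed an adjusted p of 0.05, that is 0 against 0.00229% of 130869 autosomal positions, and 2 of 4817 domesticus positions passed, against 0.0319% of 125478. At an unadjusted p under 0.05 the shares were 4.55% of the castaneus coding positions against 2.34% of all, and 4.67% of the domesticus coding positions against 2.37% of all. Most of the other positions lay within 2 kb of a start, where the median position had 0% mC. The 2 called positions each had libraries at exactly 0. In AW551984, position 39599983 of chromosome 9, the libraries had 93.0, 97.3 and 91.2% in controls and 93.8 and 0% after depletion. The neighbour 13 bases away had 73.4 and 75.4% in the depleted libraries, so the 0 was at that position in depleted replicate 2 alone, and without this library the difference was -0.07 points. In Evpl, position 116221960 of chromosome 11, controls had 55.4, 45.6 and 0% and both depleted libraries 0%, while the other 6 domesticus positions of the exon had 28.6 to 86.3% in every library. Without control replicate 3 the Evpl difference was -50.5 points in place of -33.7. Its adjusted p of 0.0389 in the quasi-binomial model rose above 0.05 in most alternatives. It was 1 without control replicate 1 and 0.137 without control replicate 2, 0.997 and 1 without depleted replicates 1 and 2, and 0.0751 and 0.194 with more than 10 and more than 40 calls by the same model. Limma on log2 ratios called neither position. An unmethylated CpG and a C-to-T change on that chromosome give the same 0 in these files, and the genotype of the dams at these positions was not used here.

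Coding exons of the 2 alleles were alike in level. Over the 2643 shared positions the castaneus allele was higher by 0.30, 0.32 and 0.91 points in the control libraries and by 0.19 and 0.41 points in the depleted libraries, a mean of 0.43 (exact sign-flip permutation test, two-sided, p = 0.063, the smallest possible). The mean was 0.83 with more than 40 calls and 0.26 with more than 10 calls, and more than 5 kb from a start it was 0.21 (exact sign-flip permutation p = 0.375). The median absolute difference at a position was 3.31 points, and 96 positions, or 3.63%, differed by more than 20 points. Of 394 exons with at least 3 shared positions, 10 differed by more than 20 points, which is 2.54% against 1.51% of 6831 autosomal units. The alleles did not overlap in 30 exons, which is 7.61% against 4.57% of all units, 7.06% of introns, 10.2% of intergenic units and 2.91% of units near a start. Of the 30 exons, 19 were higher on the castaneus and 11 on the domesticus allele.

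**Figure D5:**
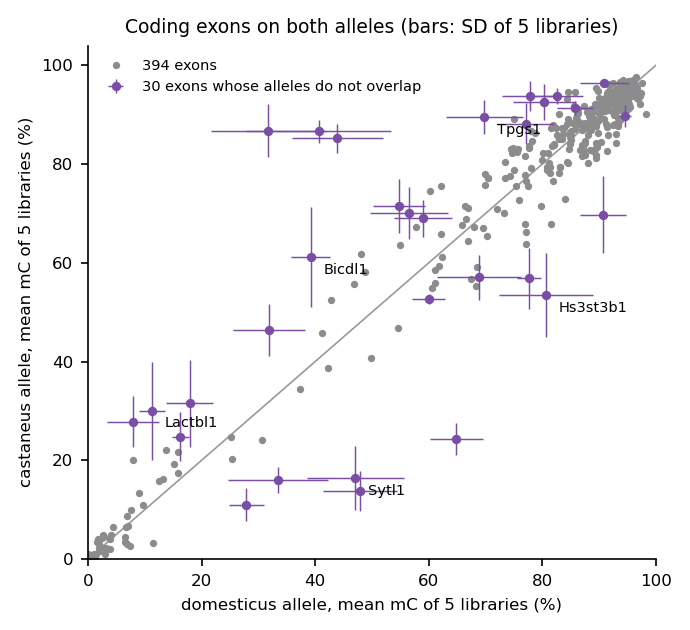
Mean mC of the 5 libraries on the castaneus allele (y axis, %) against the domesticus allele (x axis, %) for 394 coding exons with at least 3 shared positions. Purple points are the 30 exons whose alleles do not overlap, with bars of 1 SD over 5 libraries, and the line marks equal levels. Sytl1 and Hs3st3b1 lie below the line and Bicdl1, Lactbl1 and Tpgs1 above it.

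Sytl1, a synaptotagmin-like protein that binds Rab27, differed most towards the domesticus allele among exons with at least 5 shared positions. Its castaneus allele had 17.1, 20.5 and 7.67% in controls and 12.9 and 24.0% after depletion. The domesticus allele had 59.3, 45.8 and 35.7% in controls and 44.9 and 49.5% after depletion. Hs3st3b1, Rab11fip4, Fbn2 and L3mbtl1 were also higher on the domesticus allele in 5 of 5 libraries, with castaneus minus domesticus differences of -27.1, -20.9, -13.7 and -10.95. In Fbn2 and L3mbtl1 the ranges of the alleles overlapped. Towards the castaneus allele the difference was 22.0 points in Bicdl1, 19.7 in Tpgs1, 18.8 in Lactbl1, 16.7 in Ston1 and 15.9 in Pomk, and the alleles did not overlap in any of these 5 exons. A larger gap stood in an exon with 3 shared positions, chosen here after its values were seen. Pstpip2, an F-BAR protein, had 86.8% ± 5.38 (SD, n = 5) on the castaneus and 31.8% ± 10.1 on the domesticus allele. The allele is also the parent and the strain in this cross, and these cannot be told apart.

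The gene groups differed in level, from 32.4 to 91.2% on the castaneus allele, while depleted minus control in their means ran from -2.06 to 1.93 points over both alleles. The means that follow are over 5 libraries with their SD, and 0 exons of any group passed the adjusted p on either allele. Developmental transcription factors were lowest, with 32.4% ± 1.26 over 95 castaneus positions of 20 genes and 42.3% ± 1.35 over 54 domesticus positions of 13 genes. In this group Tbx2 had 9.90, 12.3 and 15.3% in controls and 11.1 and 6.23% after depletion on the castaneus allele. Runx1, a regulator of blood cell fate, had 49.1, 36.8 and 41.5% in controls and 40.3 and 38.3% after depletion on the domesticus allele. Synaptic and ion channel genes had 59.2% ± 0.66 and 50.5% ± 0.41. Extracellular matrix and adhesion genes had 73.6% ± 0.87 and 75.3% ± 0.53, with the exon of Itgb4, an integrin of epithelial hemidesmosomes, at 0.482% on the domesticus allele. The exon of Adamtsl5, a secreted matrix protein, had 6.30, 2.41 and 2.63% in controls and 1.04 and 0.922% after depletion on the castaneus allele (adjusted p = 0.849 by the quasi-binomial model), without overlap. Genes of the Wnt, Notch, hedgehog and TGF-beta pathways had 66.4% ± 0.94 and 72.1% ± 1.03, with the Wnt receptor Fzd8 at 4.01 and 3.85%. Membrane transporters had 76.4% ± 1.14 and 78.3% ± 0.63, cytoskeleton and motor genes 71.5% ± 0.54 and 73.8% ± 1.54, and chromatin and DNA methylation genes 73.7% ± 0.50 and 79.3% ± 0.75. Translation, proteasome and RNA polymerase II genes had 91.2% ± 1.02 over 18 castaneus and 93.0% ± 2.39 over 12 domesticus positions of 4 genes each, with 7 positions of Eif3c, a translation initiation factor subunit, at 92.6% on the castaneus allele. Its exon has a copy of 94.2% identity elsewhere on the chromosomes. Control and depleted libraries did not overlap in the castaneus means of developmental transcription factors, with 33.2, 33.6 and 33.02% in controls and 31.9 and 30.5% after depletion (-2.06 points). They were also apart in the castaneus means of synaptic genes (-1.02 points) and of the Wnt, Notch, hedgehog and TGF-beta group (1.44 points) and in the domesticus mean of cytoskeleton genes (1.93 points), and overlapped in the other group means. Separate ranges are common with 3 against 2 libraries, as 17.2% of all castaneus and 17.1% of all domesticus units had them. The gene groups also differed in CpG density, from a mean local count of 4.17 CpGs in the translation group to 8.79 in the developmental transcription factors on the castaneus allele. At an unadjusted p under 0.05 the castaneus allele had 28 lower and 14 higher of all 714 exons. Of these the synaptic group had 2 lower and 0 higher of 35, transporters 2 lower and 0 higher of 18, the matrix group 2 lower and 2 higher of 28, and the Wnt, Notch, hedgehog and TGF-beta group 0 lower and 1 higher of 26. The cytoskeleton (23 exons), developmental transcription factor (9), chromatin (12) and translation (4) groups had 0. On the domesticus allele, with 23 lower and 16 higher of all 651, the matrix group had 1 lower and 0 higher of 25, the cytoskeleton group 0 lower and 1 higher of 17, and transporters 0 lower and 1 higher of 16. The synaptic (30 exons), signalling (24), developmental transcription factor (7), chromatin (9) and translation (3) groups had 0.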

How the data were processed

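The 5 eRRBS libraries of female fibroblasts had been split by allele by the authors. The deposited files give 1 line per CpG call with its methylation state (methylated or unmethylated), with neither counts per site nor normalized values. As the labels, file headers and the methods of the study state, the authors trimmed reads with Trim Galore, aligned them with Bismark to an n-masked mm10 genome, left out 7 bases at the 5′ and 8 bases at the 3′ end, split them by SNPs without C/T SNPs and called states with the Bismark methylation extractor version 0.13.0. CASAVA 1.4 is named in the submitters' processing notes. Duplicate removal is not given in the sources used here. Between 5.34 and 5.66% of calls come from reads marked by the filter of the sequencer, and these were kept.

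Calls were summed per position, library and allele, and mC is the percent of methylated calls. The maternal allele was checked at the imprinted Zrsr1 start, at 93.1 to 97.4% on the domesticus and 0.784 to 4.62% on the castaneus allele. Positions had to be a CpG of GRCm38. Exons needed 3 positions, and other autosomal positions were joined into units where under 500 bp apart. Libraries were the replicates, and nothing in the labels says whether they came from separate embryos, so p-values may measure technical spread. Library means were compared by exact permutation of labels (10 arrangements) or exact sign flips (32 patterns). Exons and positions were tested with a quasi-binomial model, with limma 3.58.1 in R 4.3.3 moderating the dispersion, held at 1 or more, over all autosomal units or positions of the allele. The script was tested on simulated data. Alternatives were limma on log2((mC + 0.5)/(C + 0.5)), Fisher's exact test on pooled calls, other call minimums, reads and distances, each library left out, and replicate numbers as a block. No pairing by replicate number was seen, as correlations of deviations lay between -0.056 and 0.056. Counting error at single positions can hide a pairing, so this check cannot exclude it. Exons named were the 5 largest changes per direction and allele with at least 5 positions, an unadjusted p under 0.05 and no overlap, the 5 lowest with at least 10 positions, the 5 largest allele differences per direction and the exon with most positions in each gene list. Copies of at least 70 bases and 80% identity were sought with BLAST+ 2.17.0. Members and lists were chosen with earlier results of these data known.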

Additional observations from a re-analysis of the deposited data

How the results depend on the processing

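Of 193 values of main differences under an alternative, 174 kept their direction, of which 60 moved by more than 1.5 times, and 19 changed sign. All 245 values of the named exons and positions kept their direction, 14 moved by more than 1.5 times, 25 newly passed the threshold, all of them by Fisher's exact test except some values of Dact3 and Disp3, and 9 no longer did. The exons were chosen with groups that did not overlap, so leaving out a library could not change their direction. The called positions of AW551984 and Evpl were chosen by adjusted p, and their groups overlapped. The AW551984 difference was -0.07 points without depleted replicate 2. The castaneus coding minus intron difference within genes was 0.29 points with more than 40 calls. Fisher's exact test on pooled calls, which treats calls as independent, called 119 castaneus and 102 domesticus exons and 278 and 275 positions, against 12.1% of all units on both alleles and 2.64 and 2.78% of all positions. Limma called 0 domesticus positions. A minimum of more than 10 calls gave 1 castaneus exon (0.0601% of all units) and 1 domesticus position (0.0208% of all), and more than 40 calls gave 1 domesticus position (0.0194% of all). With more than 10 calls the domesticus class of 20 to 80% differed by 0.099 points and the coding minus intron effect was -0.31 points. Pooling calls over positions gave 0.25 points for that class. At low CpG density the codon differences that changed sign were -0.33 (castaneus base 3 minus 2), -0.57 (domesticus base 1 minus 2) and -1.26 (domesticus base 3 minus 2). The cause of these changes was not tested.

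The replicate numbers showed no pairing of the libraries, which the check used could not exclude. With them as a block, which leaves out control replicate 3, 2 castaneus exons (0.13% of all units), Dact3 and Clec3b, and 1 domesticus exon (0.289% of all units), Dact3, were called, with an adjusted p for Dact3 of 0.0139 and 0.0322 in the quasi-binomial model with limma. In this fit the class over 80% differed by -0.097 points on the castaneus and -0.34 points on the domesticus allele, and the domesticus mean by -0.13 points.

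With each library left out in turn, 0 to 2 castaneus exons and 1 to 4 domesticus positions were called, against 0.0229 to 0.137% of all units and 0.0191 to 0.0494% of all positions. There was 1 exon without control replicate 2 and 2 without control replicate 3, 4 positions without control replicate 1 and 1 without depleted replicate 2. Clec3b, named after its values were seen, passed on the castaneus allele without control replicate 3 (adjusted p = 0.0117 by the quasi-binomial model with limma). Depleted minus control ranged from -1.43 to 0.14 points in the castaneus class of 20 to 80%, from -0.097 to 0.38 in the castaneus class over 80%, from -0.35 to 0.17 in the domesticus class of 20 to 80%, from -0.34 to 0.26 in the domesticus class over 80% and from -0.13 to 0.29 in the domesticus mean. It ranged from -0.43 to -0.044 in the castaneus mean, which was -0.41 with calls pooled (exact permutation p = 0.1), and the castaneus minus domesticus effect ranged from -0.32 to -0.0089. The castaneus coding minus intron effect ranged from -0.87 to -0.13. The domesticus coding minus intron effect ranged from -0.047 to 0.62 points. In the comparisons of conditions that changed sign, the groups overlapped with all libraries included. With 3 against 2 libraries, differences in mean mC cannot pass 0.05 by exact permutation, and a median of 47 to 52 calls per position limits what single positions can show.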
